A study of Mus musculus with 15 samples.

Results

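Hematopoietic stem cells (HSCs) from Gfi1-WT mice were profiled by RNA sequencing as the wild-type baseline of a series on the transcriptional repressor Gfi1. The members are the 3 libraries whose titles carry Gfi1-WT, of 15 libraries in all, and the genotype given for them is Gfi1 WT/WT with no treatment. The other 12 libraries, 3 per genotype and also untreated, came from GFI1-KI mice (human GFI1 in the murine locus, GFI1-36S in the sample titles and KI/KI in the genotype field), GFI1-KD mice (human GFI1 at reduced expression), Gfi1-KO mice (no Gfi1) and GFI1-36N mice (the human 36N variant in the murine locus). Cells were taken from bone marrow, depleted of lineage-positive cells and sorted as Lin-, Sca1+, c-Kit+, CD150+ and CD48-. The age of the mice, and whether each library stands for 1 mouse, were not given in the sources used here, so the spread between libraries may be technical.

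HSCs are rare, long-lived bone marrow cells that renew themselves and give rise to every blood lineage. In the mouse they are recognised by the receptor c-Kit, the surface protein Sca1 and the SLAM receptor CD150, and by the absence of CD48. A network of transcription factors, among them Meis1, Runx1, Gata2 and the ETS factors Fli1 and Erg, keeps them from differentiating. Gfi1 and its paralog Gfi1b are zinc finger repressors that restrain HSC proliferation and steer progenitors towards myeloid, lymphoid, erythroid and megakaryocytic fates.

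The deposited table gives estimated counts for 35533 named genes, and the 3 libraries labelled Gfi1-WT held 17311159, 17640917 and 16339007 counts in total, within the range of the others (16221642 to 20641056). Levels are given as CPM, the counts of a gene scaled to a common library size, after TMM normalization over the 15 libraries. CPM grows with the length of a transcript, so CPM of different genes are shares of counts and not an order of abundance per molecule. A level per kb of transcript is given for the leading genes. A listed value of 0 allows a level of up to 0.169, 0.173 and 0.181 CPM (3 counts) in replicates 1, 2 and 3, which covers counting error only.

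The targeted gene did not mark the wild type. Gfi1 (chr5:107716657-107726036) was at 0.274, 0 and 0 CPM in the libraries labelled Gfi1-WT, at or near the limit a count of 0 allows. In those labelled Gfi1-KO it was at 6.29, 3.35 and 0 CPM. It was at 0, 0 and 13.6 CPM in GFI1-KD, at 0, 5.93 and 1.67 CPM in GFI1-KI and at 22.6, 3.73 and 0 CPM in GFI1-36N, whose alleles carry the human gene. So wild-type cells, which should carry murine Gfi1 transcripts, held no more of them than Gfi1-KO cells, and 5 of the 12 other libraries were at 0. The level of Gfi1 therefore does not bear out the labels, and every direction given below rests on the labels alone. These values are few and low, and edgeR did not call Gfi1 against the other genotypes (log2 difference -5.39, SE 3.37). Between 3 and 10 CPM, 49.1% of genes were at 0 in at least 1 Gfi1-WT library.

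The 3 libraries held 14381, 13051 and 12305 genes above 0. At 1 CPM or more they held 11434, 10257 and 9131 genes, and 7772 genes (21.9% of the table) reached that level in all 3. A further 2594 genes reached it in exactly 2 libraries and 2318 in only 1, while 19223 genes were at 0 in all 3. The number of genes above 0 averaged 13246 ± 1052 (SD, n = 3) against 12926 ± 1538 (SD, n = 12) in the other genotypes, a difference within the spread (two-sided exact permutation test, p = 0.818, adjusted p = 0.835, n = 3 and 12, 2 tests). The 10 most abundant genes took 6.81% ± 0.118 (SD, n = 3) of the counts against 6.76% ± 0.667 (SD, n = 12) in the others, also within the spread (two-sided exact permutation test, p = 0.835, adjusted p = 0.835, n = 3 and 12).

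Counts were concentrated in the genes of higher level. The 97 genes at a mean of 1000 CPM or more held 21.2% of the counts, and the 2328 genes at 100 CPM or more held 74.5%. The 20 genes with the largest shares, 9.86% of the total, were 19 protein-coding genes and 1 pseudogene. All 20 were among the 100 most abundant genes of each library labelled Gfi1-WT, and 19 of them were so in each of the 15 libraries.

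**Figure D1:**
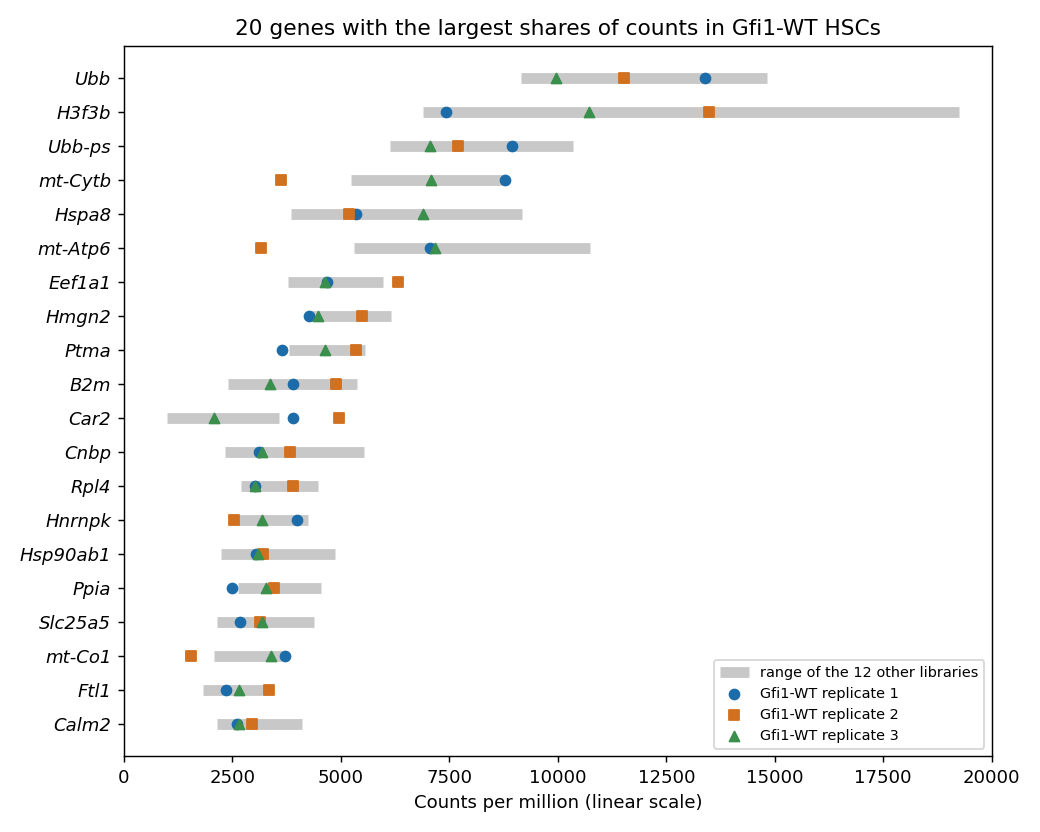
Levels of the 20 genes with the largest mean share of counts in Gfi1-WT HSCs, in CPM on a linear axis; coloured points are the 3 libraries labelled Gfi1-WT and grey bars the range of the 12 libraries of other genotypes. Mean levels ran from 11628 CPM for Ubb to 2734 CPM for Calm2, and the 3 mitochondrial genes were lowest in replicate 2.

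Ubiquitin and chromatin genes led the ranking. Ubb, a polyubiquitin gene at chr11:62551171-62553213 on the plus strand (GRCm38), was at 13394, 11533 and 9957 CPM in replicates 1, 2 and 3 (11628 ± 1720, SD, n = 3). H3f3b, which encodes the replication-independent histone H3.3, was at 7416, 13487 and 10711 CPM, highest in replicate 2. The transcribed processed pseudogene Ubb-ps at chr14:46084028-46085000 was at 8939, 7707 and 7058 CPM, highest in replicate 1 as Ubb was. Per kb of transcript Ubb-ps ranked 1st of all genes, Ubb 3rd and H3f3b 4th.

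Ubb-ps and Ubb share much of their sequence. Of the 31-base words of the Ubb-ps transcript, 85.8% also occur in Ubb, and 57.3% of the words of Ubb occur in Ubb-ps, so the quantification had to divide the reads of the shared stretches between them. Over 611 aligned bases the 2 transcripts differed at 8. The coding stretch with most differences, 5 in 60 bases, is shown to place these differences. Ubb also has words outside the alignment that Ubb-ps lacks. Both sequences are read 5′ to 3′ from the GENCODE annotation of GRCm38 on the plus strand, with the differing bases in capitals.
Ubb, chr11:62552813-62552872: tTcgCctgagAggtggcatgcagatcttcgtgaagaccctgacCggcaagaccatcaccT
Ubb-ps, chr14:46084565-46084624: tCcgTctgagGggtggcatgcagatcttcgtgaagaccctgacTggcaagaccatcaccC

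Further abundant genes shared words with other genes as well. The share found in any other gene was 99.5% for mt-Atp6, 80.6% for Ftl1, 77.2% for Hspa8 and 76.0% for Hmgn2, and the error this adds to their levels was not measured. B2m, Car2 and Cnbp shared none. Pseudogenes as a class held 2.16%, 1.95% and 2.12% of the counts in the 3 libraries, against 1.81% to 2.29% in the other genotypes. Gm29216, a pseudogene with 97.2% of its words in mt-Co1, was at 1216, 522 and 1155 CPM and was lowest in the library where mt-Co1 was lowest.

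Mitochondrial transcripts set replicate 2 apart. mt-Cytb, a subunit of respiratory complex III, was at 8785, 3631 and 7083 CPM, and mt-Atp6, a subunit of the ATP synthase, was at 7065, 3154 and 7158 CPM. mt-Co1, the catalytic subunit of cytochrome c oxidase, was at 3722, 1538 and 3381 CPM. In all 3 genes replicate 2 was lowest, and below the lowest of the 12 other libraries. The 13 mitochondrially encoded genes together took 2.76% (95% Wilson interval 2.75 to 2.77), 1.19% (1.18 to 1.19) and 2.56% (2.56 to 2.57) of the counts, and 1.93% to 2.90% in the other genotypes.

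Chaperones and translation genes were also among the 20 genes. The chaperone Hspa8 was at 5346, 5195 and 6888 CPM, and Hsp90ab1, a cytosolic chaperone of the HSP90 family, was at 3034, 3201 and 3079 CPM with a coefficient of variation (CV, SD over mean) of 2.79%. Eef1a1, which delivers aminoacyl-tRNA to the ribosome, was at 4669, 6316 and 4645 CPM. All 20 listed translation factors reached 1 CPM in all 3 libraries, with a median CV of 14.6%, against 39.5% for the 13 mitochondrially encoded genes. Of 86 cytosolic ribosomal protein genes 81 did so, with a median CV of 22.2%, and together they took 4.30%, 5.53% and 5.40% of the counts. Rpl4, a protein of the large subunit, was the only one among the 20 genes, at 3027, 3887 and 3030 CPM.

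The rest of the 20 genes have diverse roles. The chromatin proteins Hmgn2 and Ptma averaged 4738 ± 651 and 4546 ± 862 CPM (SD, n = 3). B2m, the light chain of MHC class I, averaged 4055 ± 770 CPM. The nucleic acid binding proteins Cnbp and Hnrnpk averaged 3372 ± 395 and 3230 ± 725 CPM. Ppia, a prolyl isomerase, averaged 3069 ± 513 CPM, and the mitochondrial ADP/ATP carrier Slc25a5 averaged 2998 ± 280 CPM. Ftl1, the ferritin light chain, averaged 2780 ± 509 CPM, and Calm2, a calmodulin gene, averaged 2734 ± 193 CPM. Car2, a carbonic anhydrase, was at 3901, 4964 and 2074 CPM and had one of the wider spreads among them.

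Ranked by level per kb of transcript, 14 of the 20 genes stayed in the leading 20. Eef1a1 could not be ranked this way, because its transcripts were not matched to a length. Genes that entered from below were short, such as mt-Atp8 (5th per kb, 59th by CPM) and the ribosomal protein gene Rpl32 (14th per kb, 54th by CPM), both named after their values were seen. Long genes moved the other way: Hsp90ab1 fell to 42nd.

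The genes of the sort gate were present, but not evenly. In bulk RNA, fewer cells of a type and less RNA per cell cannot be told apart. Kit, which encodes the stem cell factor receptor c-Kit (chr5:75574916-75656722), was at 414, 185 and 388 CPM. Slamf1, which encodes CD150 (chr1:171767127-171801184), was at 147, 73.6 and 19.8 CPM. Ly6a, which encodes Sca1 (chr15:74994877-74998031), was at 45.7, 65.6 and 0 CPM. So replicate 3 was lowest for 2 of these 3 gate genes and had no counts for Ly6a, while each of the 12 other libraries held Ly6a at 12.6 to 97.5 CPM.

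Cd48, whose product is absent from the sorted surface, was at 4.65, 12.9 and 0 CPM, and the other genotypes ranged from 0 to 504 CPM. Ptprc, the pan-leukocyte antigen CD45, was at 905, 650 and 206 CPM, again lowest in replicate 3, which lay below the lowest of the other genotypes (368 CPM). Meis1, a homeobox factor that HSCs need for self-renewal (chr11:18879817-19018985), was at 1419, 1387 and 644 CPM and ranked 77th of all genes by CPM and 265th per kb. Of the 4 HSC markers, Kit, Slamf1 and Meis1 were thus above 0 in all 3 libraries and Ly6a in 2 of them.

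The lineage antigens of the depletion were low. Of 6 listed genes, 4 were at 0 in all 3 libraries, among them Ly6g (neutrophils) and Cd3e and Cd5 (T cells). Of all 35533 genes, pseudogenes included, 19223 were at 0 in all 3. Itgam, the myeloid integrin CD11b, was at 0.551, 15.2 and 30.3 CPM. The other 12 libraries held it at a median of 0.0529 CPM and up to 33.7 CPM, with 5 at 0. It was higher in Gfi1-WT by estimate (log2 difference 4.03, SE 1.71), but edgeR did not call it.

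**Figure D2:**
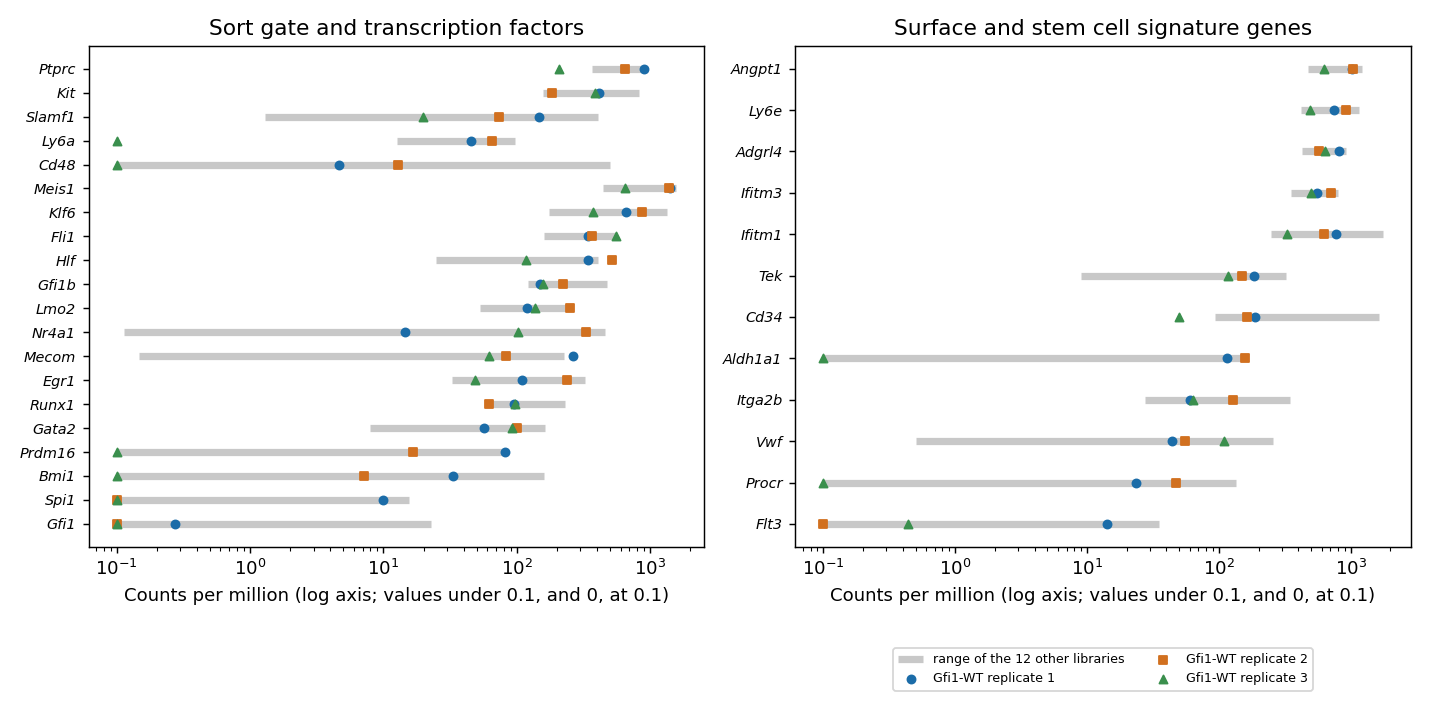
Levels of the sort gate genes and HSC transcription factors (left) and of the HSC surface and stem cell signature genes (right) that are named in the text, in CPM on a log axis where values under 0.1 are drawn at 0.1; coloured points are the 3 libraries labelled Gfi1-WT and grey bars the range of the 12 other libraries. Meis1 and Angpt1 have the highest CPM of their lists, and Ly6a, Procr and Aldh1a1 are at 0 in replicate 3.

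Most of the listed transcription factors of HSCs were detected. Of 32 factors, 24 reached 1 CPM in all 3 libraries, 11 reached 100 CPM in all 3, and 6 were at 0 in at least 1 library. Beside Meis1, a large share of counts belonged to the zinc finger factor Klf6, at 659, 867 and 370 CPM. Fli1, an ETS factor, was at 343, 369 and 551 CPM. Hlf, a PAR-bZIP factor that marks HSCs, was at 340, 517 and 118 CPM, so that replicate 2 was above the highest of the other genotypes (407 CPM) and replicate 3 was lowest. In the transcript values its leading transcript, with 97.4%, 95.2% and 100% of the level, was at 411, 251 and 151 CPM. There replicate 1 was highest, so the place of replicate 2 rests on the gene values alone.

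Further factors were named after their values were seen. Runx1, a core-binding factor subunit, was at 94.6, 62.1 and 96.6 CPM, and Gata2, a zinc finger factor of HSC maintenance, was at 56.8, 99.9 and 91.4 CPM. Lmo2, the bridging protein of the same complex, was at 119, 250 and 138 CPM. For these 3 factors no library was near 0. Mecom, the locus of Evi1, was at 263, 82.4 and 62.1 CPM. Prdm16, a SET domain factor of HSC maintenance, was at 81.3, 16.8 and 0.0409 CPM, under the limit of 3 counts in replicate 3. Bmi1, a Polycomb subunit, was at 33.4, 7.19 and 0 CPM, highest in replicate 1 as Mecom and Prdm16 were.

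The paralog Gfi1b was at 151, 222 and 156 CPM (176 ± 39.6, SD, n = 3), inside the range of the other genotypes (121 to 476 CPM). Spi1, which encodes the myeloid factor PU.1, was at 9.88, 0 and 0 CPM.

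Of 40 listed surface and signature genes of HSCs, 30 reached 1 CPM in all 3 libraries, 13 reached 100 CPM in all 3, and 6 were at 0 in at least 1. Their median CV was 48.6%. Angpt1, a ligand of the receptor Tek, was at 1026, 1037 and 629 CPM. Ly6e, a small GPI-anchored protein, was at 749, 926 and 487 CPM. Adgrl4, an adhesion G protein-coupled receptor, was at 818, 573 and 635 CPM. The interferon-induced membrane proteins Ifitm3 and Ifitm1 were at 557, 711 and 500 CPM and at 779, 631 and 330 CPM. In 4 of these 5 genes replicate 3 was lowest, and no library fell below 330.3 CPM in any of them.

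Of the genes named here after their values were seen, Tek, the receptor of Angpt1, was at 186, 149 and 118 CPM. Procr, the endothelial protein C receptor EPCR, was at 23.6, 47.4 and 0 CPM, and Aldh1a1, a retinaldehyde dehydrogenase, was at 115, 159 and 0 CPM. Both were at 0 in replicate 3. Flt3, a receptor of multipotent progenitors, was at 14.1, 0 and 0.436 CPM. Cd34, low on long-term HSCs of adult mice, was at 187, 163 and 49.6 CPM, against 92.9 to 1627 CPM in the other genotypes.

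Of the 72 transcription factor and surface genes, 54 (75.0%) reached 1 CPM in all 3 libraries, against 21.9% of all genes in the table. The table includes 12540 pseudogenes, whereas the 72 are protein-coding, so the 2 shares are not of like genes. At 0 stood 2 of the 72 in replicate 1, 6 in replicate 2 and 9 in replicate 3. Of the 60 with a mean of 10 CPM or more, 34 (56.7%) had their lowest value in replicate 3, where 39.8% of all 8268 genes at that level were lowest. Replicate 3 also held the fewest genes, and whether the 2 observations are linked was not tested.

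Most cell cycle genes were detected. Of 26 S phase genes, 25 reached 1 CPM in all 3 libraries, and of 30 G2/M genes 26 did so. Bub1b, Plk1 and Kif23, named after their values were seen, fell to 0, 0.0517 and 0.0892 CPM in replicate 3. Rfc2, a subunit of the clamp loader, was at 657, 717 and 901 CPM, and the clamp Pcna was at 435, 590 and 890 CPM. Top2a, topoisomerase II alpha, was at 520, 414 and 312 CPM, and the proliferation marker Mki67 was at 256, 293 and 331 CPM. The summed level of the S phase list was 5410, 6166 and 6263 CPM and that of the G2/M list 4081, 3524 and 4440 CPM, both within the range of the other genotypes (4567 to 6827 and 2562 to 7275 CPM).

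Of 12 inhibitors of the cycle, 9 reached 1 CPM in all 3 libraries. The antiproliferative genes Btg2 and Btg1 were at 195, 390 and 548 CPM and at 222, 184 and 121 CPM. Cdkn2d, an inhibitor of CDK4 and CDK6, was at 81.1, 99.2 and 180 CPM. Rbl2 and Rbl1, relatives of the retinoblastoma protein, averaged 50.9 and 38.6 CPM. Cdkn2a and Cdkn2b, the senescence-linked inhibitors, were at 0 in all 3 libraries. Cdkn1c, which encodes p57 and was named after its values were seen, was at 2.86, 0.0532 and 0 CPM.

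Genes of mature blood cells were mostly low or absent. Zeros were common in general: of all 35533 genes, 19223 were at 0 in all 3 libraries. The counts of zeros in the lists below are to be read beside that share. The table includes 12540 pseudogenes, so that share is not one of marker genes alone. Of 18 granulocyte genes, 9 were at 0 in all 3 libraries, among them Ly6g, Camp, Ltf, Ngp and Lcn2. Prtn3, the primary granule protease proteinase 3, was the only one above 50 CPM in all 3, at 147, 160 and 78.5 CPM. Mmp8 and S100a9, products of maturing neutrophils, were at 0, 0 and 103 CPM and at 0, 0 and 44.3 CPM, thus in replicate 3 alone. Mpo, the myeloperoxidase of granulocyte progenitors, was at 0, 30.4 and 0 CPM, thus in replicate 2 alone. The summed level of the list was 169, 225 and 278 CPM, against 94.6 to 3479 CPM in the other genotypes.

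Monocyte and macrophage genes gave 427, 469 and 386 CPM in all, most of it from Lyz2, lysozyme, at 333, 367 and 326 CPM. Lyz2 shared 32.8% of its words with Lyz1. Adgre1 (F4/80) and Fcgr1 (CD64), which define macrophages and monocytes, were at 0 in all 3 libraries. Ms4a6c was at 36.3, 6.64 and 58.0 CPM and Cd68, a lysosomal protein, at 15.1, 41.6 and 0 CPM.

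Most counts of the B cell list came from 1 gene. Ebf1, a factor that specifies the B lineage, was at 1100, 1462 and 1152 CPM, and the other genotypes held it at 884 to 1347 CPM. Of its 7 transcripts, 6 were at 0 in all 3 libraries and ENSMUST00000109268 carried 100% of the level. Only 0.706% of the words of that transcript occur in other genes. Of genes that act with or after Ebf1, Pax5, Cd79a, Igll1 and Vpreb3 were at 0 in all 3 libraries, as was Dntt. Cd79b, the partner of Cd79a in the B cell receptor, was at 133, 96.3 and 147 CPM, and 12 of the 15 list members stayed below 1 CPM in all 3 libraries.

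Of 17 T and NK cell genes, 11 were at 0 in all 3 libraries, among them Cd3e, Cd3g, Cd4, Cd8a, Ncr1 and Prf1. The granule protein gene Nkg7 was at 137, 232 and 330 CPM, with 123 to 941 CPM in the other genotypes. Lck, a kinase of T cell receptor signalling, was at 54.1, 13.2 and 61.1 CPM. These 2 genes made up nearly all of the summed level of 197, 245 and 392 CPM, while the defining antigens were at 0.

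**Figure D3:**
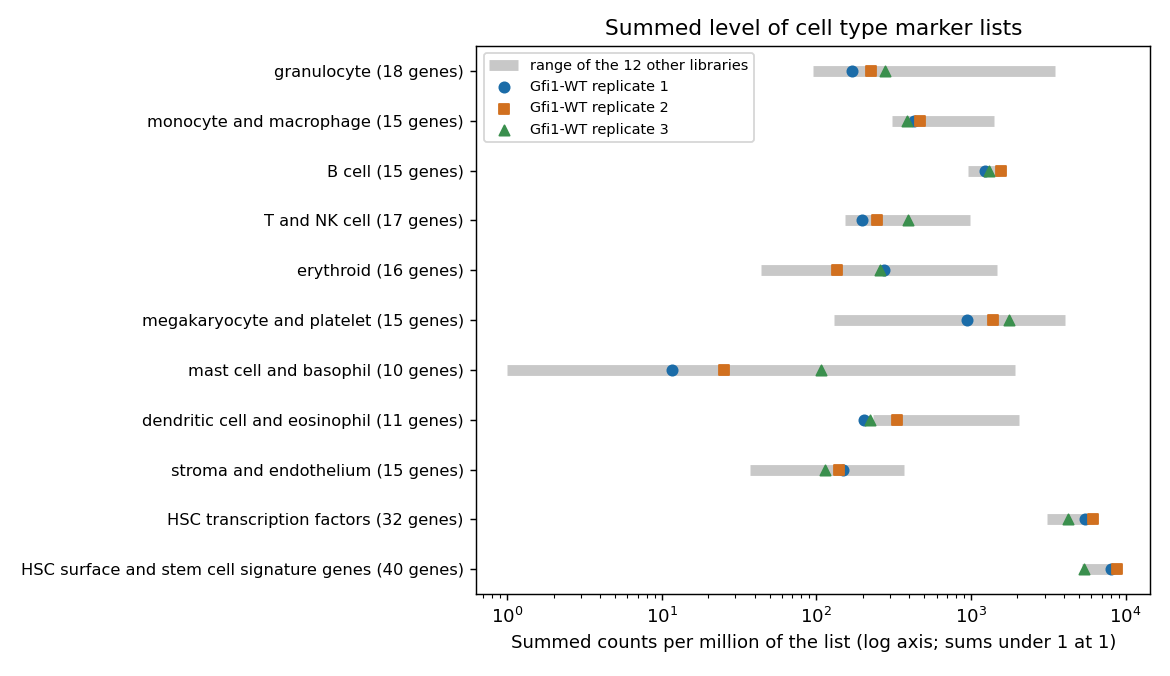
Summed CPM of each marker list (log axis) in the 3 libraries labelled Gfi1-WT (coloured points) and the range over the 12 other libraries (grey bars). The HSC lists sum to between 4248 and 8846 CPM, the megakaryocyte list to between 941 and 1755 CPM and the mast cell list to between 11.7 and 107 CPM.

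Erythroid genes were present at low level. The factor Gata1 was at 49.7, 28.4 and 99.2 CPM, the blood group gene Ermap at 53.0, 44.9 and 31.1 CPM and carbonic anhydrase Car1 at 39.1, 14.7 and 75.0 CPM. Tfrc, the transferrin receptor, was at 29.1, 16.5 and 30.4 CPM. The globin genes, which share up to 91.0% of their words with each other, stayed at or below 39.9 CPM, and the band 3 gene Slc4a1 was at 0. The list summed to 273, 136 and 259 CPM, within the 44.0 to 1464 CPM of the other genotypes.

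Megakaryocyte and platelet genes, some of which HSCs express themselves, were widely detected. Pf4, platelet factor 4, was at 199.9, 251 and 698 CPM, and F2rl2, a protease-activated receptor, at 29.5, 116 and 267 CPM. Both were highest in replicate 3. Itga2b (CD41) was at 59.9, 129 and 63.4 CPM and Vwf, von Willebrand factor, at 44.3, 55.7 and 109 CPM. Of the 15 genes, 8 reached 1 CPM in all 3 libraries and only Gp1bb was at 0 in all of them. The list summed to 941, 1381 and 1755 CPM, against 131 to 4049 CPM in the other genotypes, where Pf4 alone ranged from 0 to 2044 CPM.

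Mast cell and basophil genes were at 0 in all 3 libraries for 6 of 10, among them Mcpt8, Ms4a2 and Tpsb2. Fcer1a, the IgE receptor alpha chain, was at 10.7, 0 and 60.9 CPM, and Cpa3, the mast cell carboxypeptidase, at 0.167, 1.20 and 36.4 CPM. Replicate 3 was highest for both. Eosinophil granule genes (Epx, Prg2, Prg3) and the dendritic cell genes Itgax and Batf3 were at 0, although Prg2 reached 1496 CPM in another genotype. Cst3, cystatin C, made up most of the dendritic cell and eosinophil list, at 182, 327 and 216 CPM.

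Stroma and endothelium genes summed to 149, 141 and 114 CPM. Of 15 genes, 7 were at 0 in all 3 libraries, among them Col1a1, Col3a1, Cdh5, Cxcl12 and Pdgfra. That share is no higher than the 19223 of all 35533 genes at 0, which include pseudogenes. Pecam1, which HSCs also carry, was at 111, 62.0 and 60.1 CPM. Col1a2, a collagen I chain, was at 0.945, 18.5 and 48.3 CPM, and Emcn, endomucin, at 31.3, 60.4 and 0 CPM. The Y-linked genes Ddx3y and Eif2s3y were at 0.63 CPM or below in all 3 libraries, while they reached 246 and 219 CPM in other genotypes.

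The genome-wide agreement of the 3 libraries was moderate. Over the 11812 genes at a mean of 1 CPM or more, Spearman's rho was 0.788 for replicates 1 and 2, 0.706 for 1 and 3 and 0.688 for 2 and 3, and Pearson's r of log2(CPM + 1) was 0.755, 0.688 and 0.668. These are correlations across genes, which are not independent replicates, and the libraries shared the preparation. The median rho of pairs within a genotype was 0.717 in Gfi1-KO, 0.667 in GFI1-KD, 0.732 in GFI1-KI and 0.518 in GFI1-36N. Over the 12508 genes at a mean of 1 CPM across the series, the median rho was 0.736 among Gfi1-WT pairs and 0.743 over the 36 pairs of a Gfi1-WT with another library (0.559 to 0.869). None of the 3 wild-type libraries had another wild-type library as its nearest: replicates 1 and 3 were nearest to GFI1-KI replicate 2 (0.869 and 0.767) and replicate 2 to Gfi1-KO replicate 1 (0.825).

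**Figure D4:**
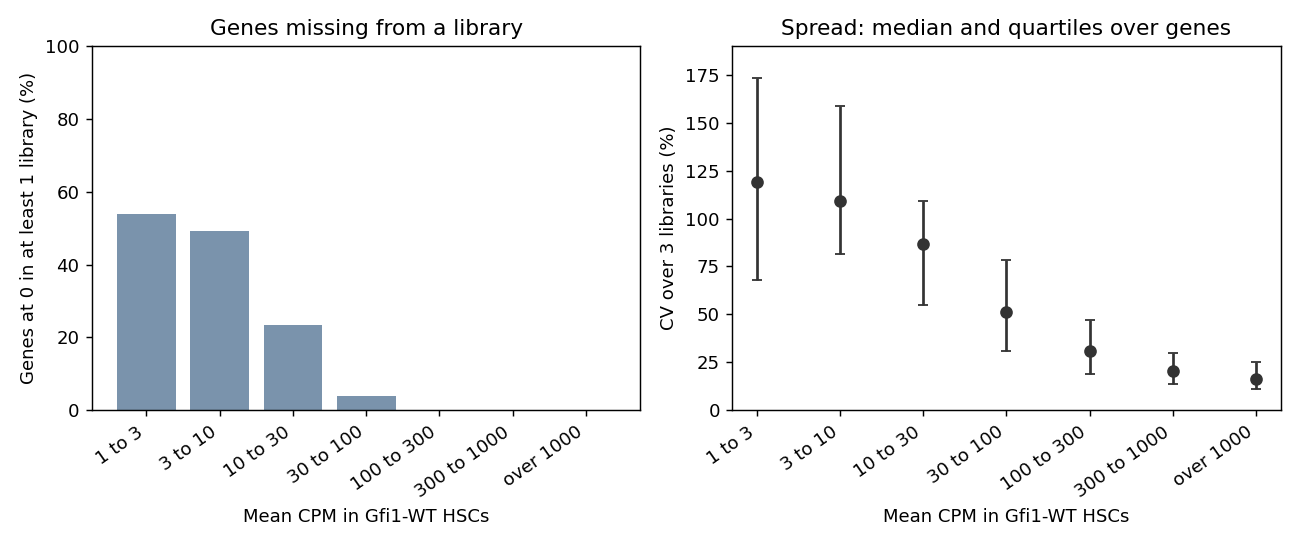
Agreement of the 3 libraries labelled Gfi1-WT by mean level: percent of genes at 0 in at least 1 library (left) and CV over the 3 libraries as median with quartiles over genes (right), by bin of mean CPM. Zeros fall from 53.7% at 1 to 3 CPM to 3.81% at 30 to 100 CPM, and the median CV falls from 119% to 16.1% above 1000 CPM.

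Agreement depended on level. Between 1 and 3 CPM, 53.7% of genes were at 0 in at least 1 library and the median CV was 119%. Between 10 and 30 CPM, where Procr and Bmi1 lie, 23.3% were still at 0 in some library and the median CV was 86.6%. Above 100 CPM, 2326 of 2328 genes were above 0 in all 3 libraries. The median CV was 30.6% between 100 and 300 CPM, 20.4% between 300 and 1000 CPM and 16.1% above 1000 CPM. Within 2-fold over the 3 libraries lay 12.6% of genes between 10 and 30 CPM and 89.7% above 1000 CPM.

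Zeros gathered in replicate 3. There, 415 genes were at 0 while both other libraries held at least 10 CPM, as Ly6a and Procr did. The same count was 92 genes for replicate 2 and 28 for replicate 1. In the opposite direction, 174 genes reached 10 CPM in replicate 1 alone with 0 in both others, 83 in replicate 2 and 65 in replicate 3.

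Among the 2328 genes at a mean of 100 CPM or more, the tightest were Drg1, a GTPase, at 467, 469 and 467 CPM (CV 0.280%), and Tmx1, a thioredoxin-related protein, at 406, 407 and 410 CPM (CV 0.430%). Eif2b3, a subunit of the exchange factor eIF2B, Ak6, an adenylate kinase, and Actr2, a subunit of the Arp2/3 complex, followed with CVs of 0.473%, 0.820% and 0.978%. As the lowest of 2328 CVs over 3 libraries, these values do not show that the genes are steadier than others. The widest was Gm8730, at 0.890, 2.11 and 307 CPM, which shares words with Rplp0. Tmtc3 was at 41.8, 10.3 and 571 CPM and Flna, filamin A, at 47.7, 44.8 and 542 CPM, both high in replicate 3 alone. Tbccd1 was at 12.6, 516 and 78.9 CPM and Myl10, a myosin light chain, at 105, 929 and 67.6 CPM, both high in replicate 2 alone. Of the 100 genes with the widest CV at this level, 54 were highest in replicate 3, 24 in replicate 2 and 22 in replicate 1.

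Transcript values agreed less than gene values, with a median rho of 0.450 over 28400 transcripts at a mean of 1 CPM or more. Of 6999 genes with several transcripts and 1 CPM or more in all 3 libraries, 69.1% had the same leading transcript in all 3, and of 548 such genes at a mean of 300 CPM or more, 89.4% did. For some genes the transcript and gene values also differed in level, as for Hlf above. The leading transcript of Prdm16 was at 21.3, 23.8 and 0.0619 CPM, with 76.6%, 100% and 100% of its transcript level. Meis1 kept ENSMUST00000068264 in front, with 47.6%, 72.3% and 57.9% of its level. Kit did not: ENSMUST00000144270 held 47.0% and 83.9% in replicates 1 and 2 and 0% in replicate 3, where ENSMUST00000202167 held 63.3%.

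The libraries labelled Gfi1-WT were compared with the mean of the 4 other genotypes. The Y-linked genes Ddx3y and Eif2s3y were near 0 in Gfi1-WT but high elsewhere in the series. The sexes may therefore be unbalanced in this comparison, and any effect of that was not tested. Of 13358 genes tested with edgeR's quasi-likelihood test over all 15 libraries, 0 (0%) had a Benjamini-Hochberg adjusted p under 0.05, and 511 had an unadjusted p under 0.05. limma-trend also called 0, and DESeq2 called 132, of which 107 had 1 genotype with all 3 libraries at 0 after rounding. In 27 genes (0.202%) the libraries labelled Gfi1-WT did not overlap with the other 12, with the wild type above in 19 and below in 8. The dispersion common to all genes was 1.94 over the series, for the 13358 genes tested. Estimated from the libraries labelled Gfi1-WT alone it was 0.431, for the 8201 genes that passed the filter there. The 2 values rest on different genes and so do not compare the spread directly.

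As the level of Gfi1 does not bear out the labels, these are differences between labelled groups. The 5 genes with the lowest p in each direction were not called by edgeR (adjusted p = 0.999971 for each). DESeq2 called 7 of these 10, namely Dpy19l4, Prrg1, Art2b, Maf, Ttc4, Slc25a15 and Septin4. Higher in Gfi1-WT by estimate were Dpy19l4 (log2 difference 4.13, SE 0.86), at 71.9, 46.2 and 113 CPM against a median of 13.9 CPM in the others, and Prrg1 (5.23, SE 1.21), at 19.0, 69.3 and 34.2 CPM. The others held Prrg1 at a median of 0.240 CPM but at up to 143 CPM, above every Gfi1-WT library. Art2b, Maf and Arhgef17 had 1 library at or below 0.265 CPM and owed their estimates to the others. For the transcription factor Maf the values were 16.1, 0.265 and 92.4 CPM.

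Lower in Gfi1-WT by estimate was Gmfg, a glia maturation factor that acts on actin branches, at 335, 395 and 369 CPM against a median of 612 CPM (log2 difference -0.68, SE 0.19). Ttc4, a co-chaperone, was at 41.1, 31.5 and 17.7 CPM against a median of 104 CPM, and the ribosomal protein gene Rpl35 was at 1259, 1468 and 1596 CPM against 2059 CPM. Slc25a15 and Septin4 were at 0 in all 3 wild-type libraries, against medians of 5.30 and 12.3 CPM. Car2, by contrast, was higher in Gfi1-WT by estimate (log2 difference 0.75, SE 0.20), also without passing the test. Of the 83 ribosomal protein genes tested, the estimate was negative in 68 and positive in 15 (median log2 difference -0.15). Over all genes tested it was negative in 5982 and positive in 7376 (median 0.09). None of the 83 was called.

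No HSC gene was called by edgeR, but as it called 0% of all genes this says nothing particular about them. For the 32 transcription factors tested, the estimate was positive in 18 and negative in 14, the median log2 difference was 0.08, and 0 were called. For the 38 surface and signature genes tested, the estimate was positive in 24 and negative in 14, the median was 0.16, and 0 were called. Meis1 differed by -0.000713 (SE 0.33) and Kit by -0.29 (SE 0.35) on the log2 scale. At an unadjusted p under 0.05 stood none of the factors and 2 of the 38 surface genes, Neo1 and Cxcr4, named after their values were seen. Over all genes tested, 511 of 13358 stood there, so 2 of 38 is near the general share. Neo1 was at 40.9, 3.51 and 76.6 CPM, with 8 of the 12 other libraries at 0 (log2 difference 7.28, SE 1.86). Cxcr4 was at 17.1, 0.171 and 0.0581 CPM (log2 difference 3.89, SE 1.35), with its level in replicate 1 alone. The intervals of such differences remain wide, as the SE of 0.92 for Slamf1 and 1.16 for Ly6a show.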

How the data were processed

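Single-end reads of poly(A)-selected RNA were quantified by the authors with Salmon on mouse cDNA (GRCm38), with bias correction. The deposited gene and transcript tables hold estimated counts, which need not be whole, for 35533 named genes and 117135 transcripts. The submitters' processing notes name sleuth 0.30.0 and R 4.2.1. A row with no gene name (0.0323% to 0.067% of a Gfi1-WT library) was left out. Groups came from the sample titles (GFI1-36S is called GFI1-KI after the genotype field), and columns were matched to samples by the number in the title. Depth was 16221642 to 20641056 counts per library, and counting intervals cover counting error only, as PCR copies are not independent molecules.

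CPM used TMM factors of all 15 libraries. A gene counted as detected at 1 CPM. Transcript lengths, GC content and coordinates came from GENCODE M21 (34421 symbols and 115895 transcripts matched). The level per kb divides the mean CPM by the abundance-weighted transcript length, scaled as CPM is. Words are the 31-base subsequences of a gene's leading transcript, sought on the same strand in other genes' transcripts. Genotypes were compared with edgeR 4.0.16 (R 4.3.3) on rounded values, filterByExpr, quasi-likelihood test and Benjamini-Hochberg adjustment, with limma 3.58.1 and DESeq2 1.42.0 as alternatives. The model was tested on simulated data of low and of high dispersion, and at high dispersion it called few of the changed genes. Other alternatives changed the scaling, the filter, the minimum level and the libraries used.

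The members, lists and tests were chosen with earlier results of these data known. Named genes were the 20 with the highest mean CPM, the sort gate, Meis1 and Gfi1, up to 5 leading members of each list, defining markers at 0, the 5 lowest and 5 highest CVs, and the 5 lowest p per direction. Of 343 listed symbols 341 were in the table. Some genes the rule names are not reported here.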

Additional observations from a re-analysis of the deposited data

How the results depend on the processing

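The number of genes detected in all 3 libraries was 7777 with CPM of the library total, 7771 with median-ratio factors, 6384 at a minimum of 5 CPM and 10213 at any value above 0, and 7988 to 9452 when 1 Gfi1-WT replicate was left out, highest without replicate 3. Of the 20 most abundant genes, 14 stayed when ranked per kb, 18 by the lowest library and 19 without any 1 replicate. The median rho of 0.706 moved to 0.646 over genes at 10 CPM or more and to 0.450 over transcripts, and ran from 0.688 to 0.788 with 1 replicate left out, highest without replicate 3. The difference in genes above 0 between Gfi1-WT and the other genotypes was 319, and changed sign to -161 without GFI1-36N replicate 3 and GFI1-KD replicate 1; leaving out 1 Gfi1-WT replicate gave -248 to 790. The difference in the share of the 10 most abundant genes ran from -0.0205 to 0.0949 percentage points. None of these differences passed the test, and the cause of the changes of sign was not tested.

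The count of genes that differed from the other genotypes was 0 with edgeR and 132 with DESeq2, and the cause was not tested. It was 0 with limma-trend, upper-quartile or median-ratio scaling, no filter, without the 2 libraries above, and with any 1 Gfi1-WT replicate left out. With the replicate block it was 0 of 13358 (263 at an unadjusted p under 0.05). Of 30 pairs of same-numbered samples, 1 had deviations correlated above 0.1. The libraries were few per genotype and varied widely (common dispersion 1.94), so low correlations cannot exclude pairing. Whether the numbers pair the samples was therefore not decided. Leaving out 1 Gfi1-WT replicate moved some mean levels by over 1.5 times. Without replicate 1, Slamf1 went from 80.2 to 46.7 CPM and Gfi1 from 0.0913 to 0 CPM. Without replicate 2, Ly6a went from 37.1 to 22.9 CPM and Cd48 from 5.83 to 2.32 CPM. Of 100 alternative estimates for the genes with the lowest p, 0 changed direction and 7 passed the threshold, all of them with DESeq2, which so called 7 of the 10 genes. These genes were picked by p in the same libraries, so their unchanged directions are no independent support. Levels under 30 CPM are limited by zeros: between 10 and 30 CPM, 23.3% of genes were at 0 in at least 1 library.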

Other observations

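The median CV over the 3 libraries labelled Gfi1-WT was 34.3% for glycolysis genes and 45.5% for immediate early genes, beside 64.1% for the HSC transcription factors. Of 17 immediate early genes, 13 reached 1 CPM in all 3 libraries. Fos, an AP-1 subunit, was at 825, 989 and 649 CPM, within the 414 to 1821 CPM of the other genotypes, and Zfp36, a regulator of mRNA decay, was at 233, 249 and 261 CPM. Nr4a1 was at 14.6, 328 and 102 CPM and Egr1 at 110, 238 and 48.3 CPM, both highest in replicate 2. Of 15 glycolysis genes, 14 reached 1 CPM in all 3: Eno1 was at 980, 1051 and 1014 CPM, Pkm at 763, 785 and 448 CPM, Ldha at 641, 590 and 621 CPM. All 14 thymosin and actin genes did so, led by Tmsb4x (1426, 1522 and 2437 CPM), Actb (1529, 2228 and 1339 CPM) and Cfl1 (1438, 1989 and 1388 CPM).

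Detection varied with base composition. Among protein-coding genes, 40.7% of the 5327 with a median transcript GC content of 45% to 50% were detected in all 3 libraries, against 357 of the 1700 under 40% and 13.1% of the 981 at 60% or more. Detected genes at 60% or more had a median level of 15.1 per kb, against 43.6 per kb at 45% to 50%. The other genotypes showed the same order of mean shares per library. Jund (GC 67%) was at 5.34, 8.34 and 8.86 CPM and Junb (GC 63%) at 1.55, 2.11 and 2.99 CPM.

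Receptors of the sense organs gave values above 0. Of 1116 olfactory receptor genes, 742 were at 0 in all 3 libraries and 154 (13.8%) reached 1 CPM in at least 1, up to 83.5 CPM for Olfr545. Of 338 vomeronasal receptor genes, 86 (25.4%) did, up to 88.7 CPM for Vmn2r97. All 58 keratin-associated protein genes were at 0. At 10 CPM or more in at least 1 library stood 32 olfactory and 20 vomeronasal receptor genes.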
